A study of Mus musculus with 4 samples.

Results

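Rgma, Chst5, Pex2, Adnp, Nxf1 and Tmem185b are 6 genes with some of the smallest unadjusted p-values among genes that read lower in differentiating mouse embryonic stem cells given TCP than in cells without it. They are 6 of the 21419 genes tested, represented on the array by 8 of its 41174 probes. They were chosen by that p-value and by the direction of the log2 ratio between the groups, so the difference between the groups is described here and not tested. The cells are ZHBTc4, a mouse embryonic stem cell line whose Oct4 (Pou5f1) supply is shut off by doxycycline, and such cells then head for trophoblast, which builds the placenta. After growth on irradiated embryonic fibroblasts and 2 passages on gelatin, cells received 2 µg doxycycline for 48 h with TCP (dox+TCP, 2 arrays) or without it (dox, 2 arrays, titled as the control), each pair being biological replicates per the labels. The labels do not spell TCP out; in work on LSD1 (Kdm1a), the histone demethylase in the study's title, it usually stands for tranylcypromine, an inhibitor of that enzyme and of the monoamine oxidases. Each array carried treated cells in the dye Cy5 and, in Cy3, a reference of ZHBTc4 cells with no treatment named. All cells come from 1 line, and both treated groups carried doxycycline and low Pou5f1 (log2 ratio to the reference −3.29 in dox+TCP and −3.50 in dox).

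The 6 genes work in different places in the cell. Rgma encodes a membrane-anchored guidance molecule that binds neogenin and acts as a co-receptor for bone morphogenetic proteins (BMPs), and Chst5 encodes a Golgi sulfotransferase that adds sulfate to N-acetylglucosamine on glycans. Pex2 encodes a RING-finger peroxin of the membrane complex that recycles the import receptor of peroxisomes, the organelles of fatty acid and peroxide metabolism. Adnp encodes a zinc-finger and homeodomain protein that works with the remodeller CHD4 and HP1 proteins on chromatin, and Nxf1 encodes the main carrier of messenger RNA through the nuclear pore. Tmem185b encodes a transmembrane protein.

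Array depth was similar: the median Cy5 signal was 224.4 and 239.2 on the dox+TCP arrays and 249 and 213.3 on the dox arrays. Precision is limited by having 2 arrays a group. Both replicate 1 arrays shared a slide, and their reference channels correlated at 0.999 across genes, against 0.981 to 0.989 for other pairs of arrays. The reference was not the same on all arrays. The median Cy3 level of 10 trophoblast markers was 10.13 and 10.78 (log2 intensity) on dox+TCP replicates 1 and 2, and 9.72 and 11.11 on dox replicates 1 and 2. Cy3 thus read brighter for these markers on both replicate 2 arrays. Pluripotency markers were low in the treated cells, as 6 of 8 passed as lower in dox+TCP and 8 of 8 in dox, with list medians of −2.68 and −2.89. Of all genes, 8.08% passed as lower in dox+TCP and 8.28% in dox. Kdm1a, the gene of LSD1, had log2 ratios of 0.04 in dox+TCP and 0.25 in dox (limma adjusted p = 0.812 and 0.152).

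All 6 genes were well above background in both channels on all 4 arrays, and all 6 passed the filter on dim probes. Their names in the files needed care for 2 genes. The single spot named Pex2 in the files carries the accession NM_021483, which the GRCm38.p6 gene table assigns to Pex5l, a relative of the import receptor Pex5. The peroxin Pex2 itself (NM_008994) is named Pxmp3 in the files, and Tmem185b (NM_146103) is named 2500001K11Rik. By names as filed, 7 probes of 5 genes match; by accession, 8 probes of all 6 genes do, and the match by accession is used here. The Pex5l probe read 0.19 and 0.06 in dox+TCP and 0.51 and 0.02 in dox, so its groups overlapped, and its difference was −0.14. The low reading with TCP therefore belongs to the spot of the peroxin Pex2 and not to the spot filed under that name.

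On mm7 (NCBI35), the build of the files, the Rgma probe lies at chr7:69272566-69272625 and the Chst5 probe at chr8:110489655-110489714. The Pex2 probe lies at chr3:5568889-5568948 and the Tmem185b probe at chr1:119387852-119387911. The brightest of 3 Adnp probes lies at chr2:167974866-167974925. The Nxf1 probe spans 209 bases of the genome, chr19:8444489-8444697, where the other members' probes span 60 each. The exon each probe matches was not determined here.

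Rgma was the member furthest above the reference. Its log2 ratio of treated cells over reference was 1.76 and 1.49 on the dox+TCP arrays and 2.69 and 2.63 on the dox arrays. Both dox+TCP values lay below both dox values, and all 4 lay well above 0. Against the reference, Rgma was 3.08-fold higher in dox+TCP (log2 1.62 ± 0.10, SE, limma adjusted p = 0.0165) and 6.32-fold higher in dox (2.66 ± 0.10, limma adjusted p = 0.0112). Between the groups it stood 2.05-fold lower with TCP, a difference of −1.03 ± 0.15. In bulk RNA, fewer cells of a type and less RNA per cell cannot be told apart, for Rgma and for the other members.

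Chst5 had the largest difference of the 6 in the ratios as processed here, while Rgma had a larger one with local backgrounds as read and in Cy5 alone. Its log2 ratio was 0.35 and 0.14 on the dox+TCP arrays and 1.34 and 1.41 on the dox arrays. The groups did not overlap, and the dox+TCP arrays read near the reference while the dox arrays read above it. Chst5 was 2.59-fold higher than the reference in dox (1.37 ± 0.09, limma adjusted p = 0.0150) and did not pass in dox+TCP (0.25 ± 0.09, limma adjusted p = 0.174, and 0.048 at a value of 0.50 under median centring). It stood 2.19-fold lower with TCP than without, at −1.13 ± 0.13.

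Pex2 and Adnp lay on opposite sides of the reference in the 2 groups in the ratios as processed here. Their mean in dox+TCP came nearer the reference under median centring, at −0.14 for Pex2 and −0.05 for Adnp. With local backgrounds as read it was −0.06 for Pex2 and −0.07 for Adnp. Pex2 had log2 ratios of −0.35 and −0.45 in dox+TCP and 0.41 and 0.59 in dox. Adnp had −0.43 and −0.31 in dox+TCP and 0.41 and 0.60 in dox, almost the same pattern. Both genes passed as higher than the reference in dox, by 0.50 ± 0.09 for Pex2 (limma adjusted p = 0.0468) and 0.51 ± 0.09 for Adnp (0.0482). Neither passed in dox+TCP, at −0.40 ± 0.09 for Pex2 (limma adjusted p = 0.0693) and −0.37 ± 0.09 for Adnp (0.0831). Those dox calls are close to the threshold of 0.05: with the scanner's own log ratios the adjusted p was 0.0674 for Pex2 and 0.0621 for Adnp. The differences with TCP were −0.90 ± 0.13 for Pex2 and −0.88 ± 0.13 for Adnp, or 1.86-fold and 1.84-fold lower.

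The other Adnp probes, 60 bases each within the same stretch of chromosome 2, give further readings of the same RNA and are not further replicates. The probe at chr2:167975115-167975174 read −0.33 and −0.32 in dox+TCP and 0.71 and 0.68 in dox. The probe at chr2:167975025-167975084 read −0.28 and −0.41 in dox+TCP and 0.62 and 0.72 in dox. Neither overlapped between groups, and their differences of −1.02 and −1.01 were slightly larger than that of the brightest probe.

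Nxf1 and Tmem185b differed from the rest in that dox alone left them near the reference. Nxf1 had log2 ratios of −0.99 and −1.04 in dox+TCP and −0.27 and −0.21 in dox. Tmem185b had −0.62 and −0.68 in dox+TCP and 0.07 and 0.03 in dox. The groups did not overlap for either gene, and the SD between the replicates of a group was 0.03 to 0.04. With TCP both fell below the reference, Nxf1 by 1.02 ± 0.08 on the log2 scale (limma adjusted p = 0.0169) and Tmem185b by 0.65 ± 0.08 (0.0244). With dox alone neither passed, at −0.24 ± 0.08 for Nxf1 (limma adjusted p = 0.129, and 0.16 with the sign turned under median centring) and 0.05 ± 0.08 for Tmem185b (0.718). Nxf1 stood 1.71-fold lower with TCP than without (−0.77 ± 0.11) and Tmem185b 1.62-fold lower (−0.70 ± 0.11).

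**Figure D1:**
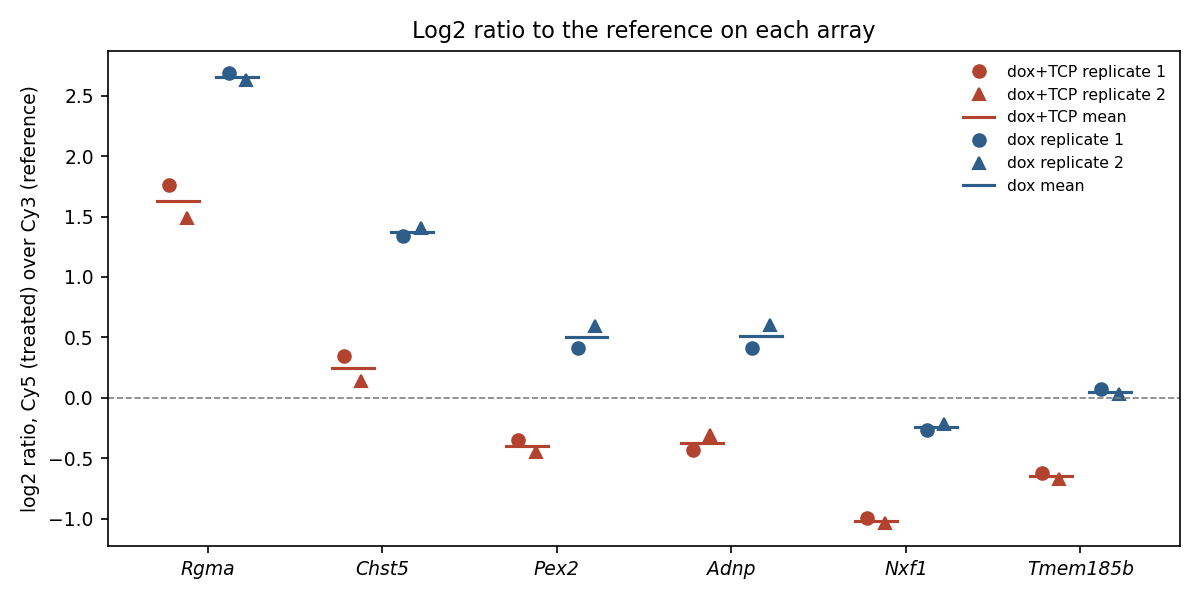
Log2 ratio of treated cells (Cy5) over the reference (Cy3) on each array for the 6 genes, with dox+TCP left of dox; points are replicates, short lines are means of 2 arrays and the dashed line is the reference. The dox+TCP points lie below the dox points for each gene, from 1.49 and 1.76 against 2.63 and 2.69 for Rgma to −0.68 and −0.62 against 0.03 and 0.07 for Tmem185b.

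Against the reference, limma called 1 of the 6 members higher (Rgma) and 2 lower (Nxf1 and Tmem185b) in dox+TCP. Over all tested genes 7.31% were called higher and 8.08% lower there, 15.4% in all. In dox, 4 members were called higher (Rgma, Chst5, Pex2 and Adnp) and 0 lower, where 6.32% of all genes were called higher and 8.28% lower, 14.6% in all. The same arrays and the same spread entered the choice of the members, so nothing is read from these shares. Both comparisons share the reference. The calls rest on the processing: with local backgrounds as read from the scanner files, a setting under which limma called 0 genes in either comparison (1965 at an unadjusted p under 0.05 in dox+TCP and 1899 in dox), 0 members passed. As read, the ratios to the reference in dox+TCP were 0.80 for Rgma, −0.26 for Nxf1 (limma adjusted p = 0.625) and −0.08 for Tmem185b (0.792). In dox they were 1.57 for Rgma, 0.72 for Chst5, 0.31 for Adnp and 0.29 for Pex2 (limma adjusted p = 0.508 for each). The dox calls also rest on fitting all 4 arrays together. From the dox arrays alone limma called 0 of 21381 genes (smallest adjusted p = 0.109), so 0 members could pass. There the SE in dox was 0.10 for Rgma and 0.11 for Pex2, against 0.10 and 0.09 with all 4 arrays. With median centring instead of loess, the all-gene median shifted by 0.14 in dox+TCP and by 0.18 in dox, and limma called 4001 genes higher and 1106 lower in dox+TCP, against 1565 and 1731 with loess, and 4884 higher and 1139 lower in dox, against 1353 and 1774.

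Between dox+TCP and dox, limma called 0 of 21419 genes (0%), and 943 had an unadjusted p under 0.05. The adjusted p was 0.996 for each member. The values that chose the members were unadjusted limma p-values from 0.00132 (Chst5) to 0.00361 (Tmem185b), and the members held ranks 2, 3, 4, 6, 8 and 9 among the 8723 genes that read lower with TCP. The last member inside was Tmem185b, and the next gene in that order was Kdf1, with a difference of −0.91 and an unadjusted limma p of 0.00391. Kdf1 thus differed more than Tmem185b but with a wider spread. The members had a median residual SD of 0.106, below the median of 0.166 over all genes, and each of the 6 lay below that median. By the size of the difference alone they would have ranked from 14 (Chst5) to 157 (Tmem185b). Groups that did not overlap, with both dox+TCP arrays lowest, were found for 12.9% of all genes.

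**Figure D2:**
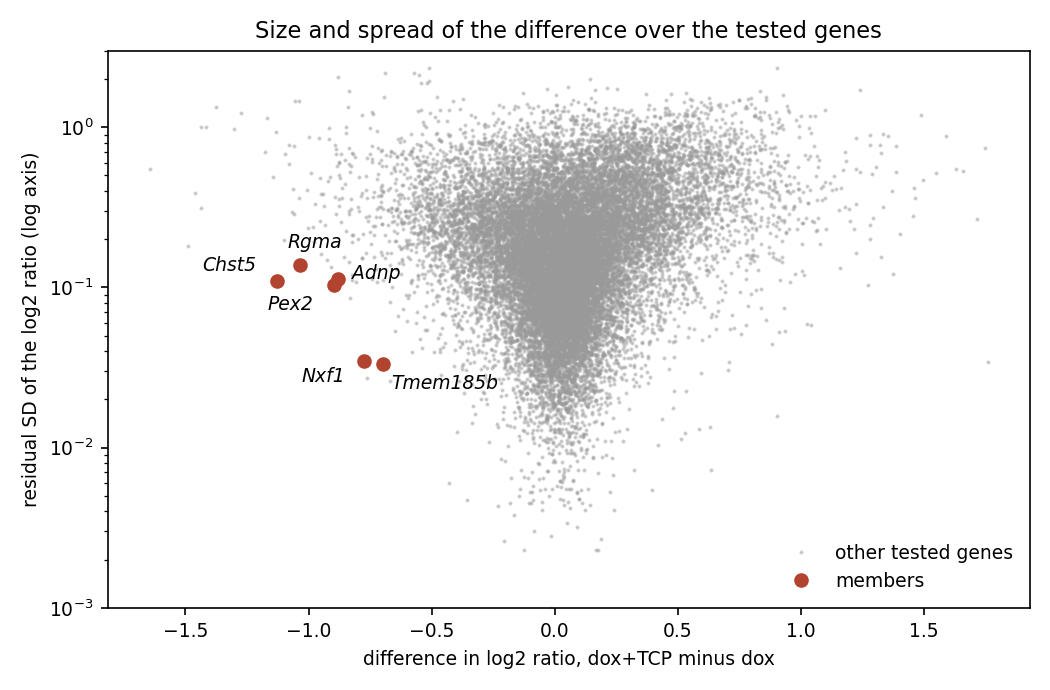
Difference in log2 ratio (dox+TCP minus dox, horizontal axis) against the residual SD of the log2 ratio over the 4 arrays (vertical log axis) for every tested gene, with the 6 members in red. The members lie at the left edge at the spread they have, with differences from −1.13 (Chst5) to −0.70 (Tmem185b) and a median SD of 0.106, the values by which they were chosen.

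A ratio can differ through either dye, so the channels were set side by side after normalization between arrays. The Cy5 level of Rgma, the treated cells themselves, was 10.67 and 10.36 (log2 intensity) in dox+TCP and 11.80 and 11.79 in dox. Its Cy3 reference level was 8.91 and 8.87 on the dox+TCP arrays and 9.12 and 9.16 on the dox arrays. Rgma therefore differed by −1.28 in Cy5 alone, more than in the ratio, because Cy3 was also slightly dimmer on the dox+TCP arrays. The Cy5 level of Chst5 was 8.54 and 8.06 in dox+TCP and 9.42 and 9.38 in dox. Its reference level was 8.19 and 7.92 on the dox+TCP arrays and 8.08 and 7.97 on the dox arrays, which overlap. Of the ratio's difference for Chst5, 97.3% thus lay in the Cy5 level.

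For the other members the Cy3 level on dox replicate 2 carried part of the difference. The Cy5 level of Adnp was 9.21 and 8.98 in dox+TCP and 10.07 and 9.18 in dox, so the treated cells' levels overlapped, while the Cy3 level was 9.65 and 9.29 on the dox+TCP arrays and 9.66 and 8.57 on the dox arrays. Pex2 had Cy5 levels of 8.11 and 7.80 in dox+TCP and 8.89 and 8.16 in dox, with Cy3 levels of 8.46 and 8.25 on the dox+TCP arrays and 8.48 and 7.57 on the dox arrays. For both genes the reference was dimmest on dox replicate 2, and Cy5 there was below dox replicate 1. The Adnp probe at chr2:167975115-167975174 had Cy5 levels of 8.77 and 8.37 in dox+TCP and 9.83 and 8.84 in dox, so that probe did not overlap in the treated cells, and neither did the third one. Nxf1 had Cy5 levels of 8.44 and 8.12 in dox+TCP and 9.11 and 8.61 in dox. Tmem185b had 7.37 and 7.33 in dox+TCP and 8.06 and 7.69 in dox. In Cy5 these 2 genes and Pex2 did not overlap between the groups. The share of the ratio's difference that lay in Cy5 was 59.9% for Adnp, 63.4% for Pex2, 74.8% for Nxf1 and 75.1% for Tmem185b. Effects on both dyes of a spot were not separated, so these shares divide the readings and not the RNA. In all, 5 of the 6 members had both dox+TCP arrays lowest in Cy5, as did 11.9% of all genes. Cy5 is the numerator of the ratio that chose the members, so nothing is read from this count. In Cy3, Rgma alone of the 6 had both dox+TCP arrays lowest, as did 10.5% of all genes.

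**Figure D3:**
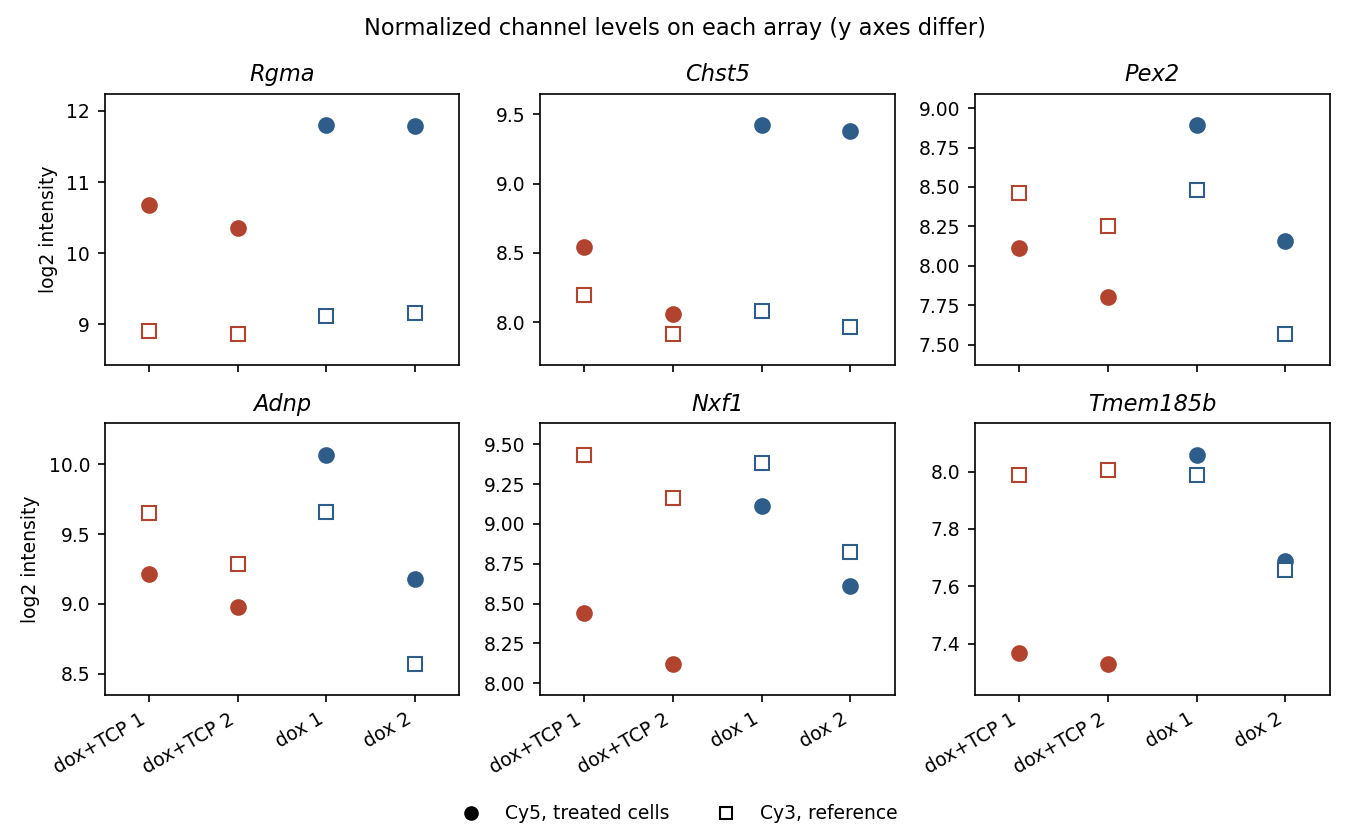
Normalized log2 intensity of treated cells (Cy5, filled circles) and of the reference (Cy3, open squares) on each array, with the 2 dox+TCP arrays (red) left of the 2 dox arrays (blue). The Cy5 points of Rgma and Chst5 are lower on both dox+TCP arrays while Cy3 varies little; for Adnp and Pex2 the Cy3 level is lowest on dox replicate 2, at 8.57 and 7.57, and Cy5 there lies below dox replicate 1.

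On the replicate 1 arrays, which shared a slide and differed little in the reference, the Cy5 level was lower with TCP for all 6 members, by −1.13 for Rgma, −0.88 for Chst5, −0.86 for Adnp, −0.78 for Pex2, −0.69 for Tmem185b and −0.67 for Nxf1. The Cy3 levels of that pair differed by −0.21 for Rgma and by −0.02 to 0.11 for the other 5. Between the replicate 2 arrays, which lay on separate slides scanned on different days, the Cy3 level was higher on the dox+TCP array by 0.71 for Adnp, 0.68 for Pex2, 0.35 for Tmem185b and 0.34 for Nxf1. It differed by −0.29 for Rgma and −0.05 for Chst5. In Cy5 the replicate 2 arrays differed by −1.43 for Rgma and −1.32 for Chst5. The Cy5 difference there was −0.49 for Nxf1, −0.36 for Pex2, −0.36 for Tmem185b and −0.20 for Adnp. The ratio was lower with TCP in both pairs for each member, from −0.69 and −0.71 for Tmem185b (pairs 1 and 2) to −0.99 and −1.27 for Chst5. Any pairing would give that sign, because the members' ratios do not overlap between the groups. Over all genes the difference between the groups had a median of 0.03 in Cy5 and −0.02 in Cy3.

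The sign of the members' differences did not turn under any of the 19 alternatives run for each, but the size did depend on them. Several of the alternatives were no separate check of the sign. The intensity trend, the replicate block and the other filters on dim probes kept each member's difference as it was. Scan day as a block gave the difference without dox+TCP replicate 2, and the series matrix repeats the scanner's log ratios. With local backgrounds as read, the differences were −0.77 for Rgma, −0.64 for Chst5, −0.38 for Adnp, −0.35 for Pex2, −0.14 for Nxf1 and −0.10 for Tmem185b. By the scanner's own log ratios they were −1.37 for Chst5, −1.22 for Pex2, −1.18 for Tmem185b, −1.10 for Adnp, −1.05 for Nxf1 and −1.04 for Rgma. From Cy5 alone they were −1.28 for Rgma, −1.10 for Chst5, −0.58 for Nxf1, −0.57 for Pex2, −0.53 for Adnp and −0.53 for Tmem185b. Rgma and Chst5 kept at least −0.64 throughout, whereas Nxf1 and Tmem185b came near 0 with backgrounds as read. Because the members' groups do not overlap, leaving out 1 array could not turn a sign; without single arrays Rgma ran from −1.17 to −0.90 and Adnp from −0.98 to −0.79.

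**Figure D4:**
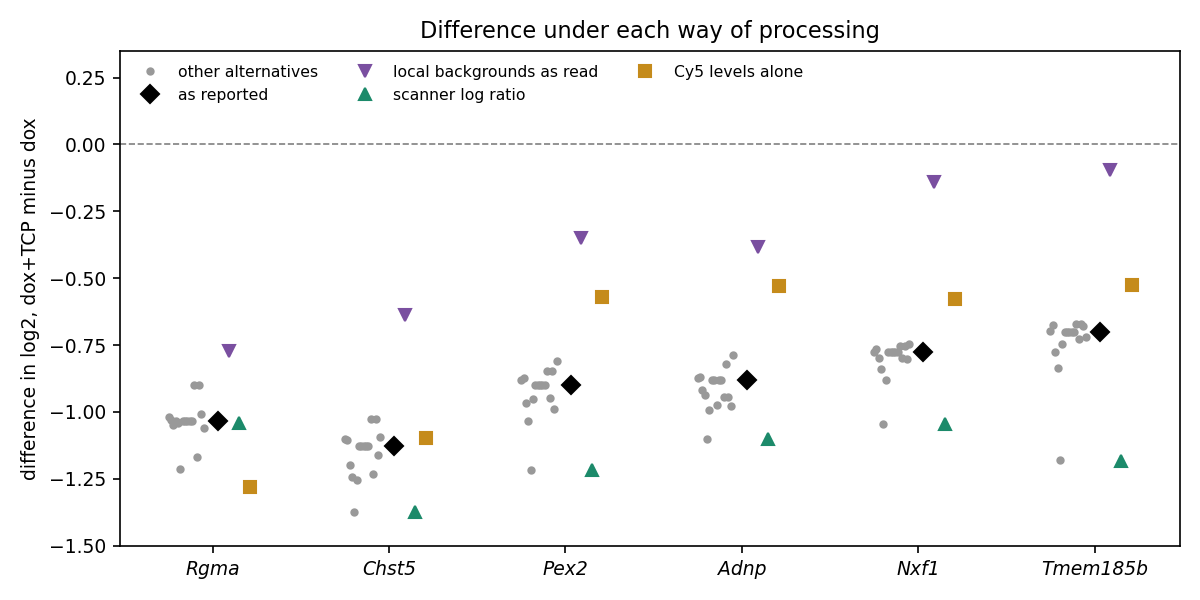
Difference in log2 (dox+TCP minus dox) for the 6 genes as reported (black diamonds) and under the other ways of processing. Every point lies below 0; the values nearest 0 come from local backgrounds as read (purple), −0.10 for Tmem185b and −0.14 for Nxf1, and Cy5 levels alone (amber) lie nearer 0 than the reported value for Pex2, Adnp, Nxf1 and Tmem185b.

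Markers of several cell types were read beside the members. Against the reference, 0 of 10 trophoblast markers passed in dox+TCP and 0 in dox, with list medians of 1.13 and 1.42. Of all genes, 15.4% and 14.6% passed in those comparisons. Of 10 trophoblast markers, 8 had a lower ratio in dox+TCP than in dox, with a median difference of −0.47, such as Tfap2c (−1.05 ± 1.06, SE), Krt8 (−0.69 ± 1.58) and Cdx2 (−0.54 ± 1.38). The other 2 markers, Hand1 (0.62) and Eomes (0.28), had a higher ratio, and the SEs of the 3 examples exceed their differences. Those SEs take in a shift between replicates 1 and 2. Krt8 read 2.91 and 0.21 in dox+TCP and 3.94 and 0.56 in dox. Cdx2 read 2.87 and 0.17 against 3.39 and 0.73, and Tfap2c 1.74 and 0.20 against 3.26 and 0.78. The summed Cy5 intensity of the 10 trophoblast markers was 311800 and 340100 in dox+TCP and 465100 and 373200 in dox, so the groups did not overlap. A sum weighs the brightest genes most. The median Cy5 levels of these markers lay closer, at 11.74 and 11.39 in dox+TCP and 12.4 and 11.8 in dox (log2 intensity). Of 8 pluripotency markers, 7 had a higher ratio in dox+TCP, with a median difference of 0.36 and summed Cy5 of 192400 and 200400 against 131200 and 153900 in dox. Their median Cy5 levels were 10.57 and 10.52 in dox+TCP and 9.80 and 10.45 in dox, so replicate 2 differed little by the median. Between the groups 0 markers of either list passed. The median differences of 10 fibroblast and 8 primitive endoderm markers were 0.09 and 0.09. With local backgrounds as read, the trophoblast median difference was −0.02. The part of these shifts in the members' values was not tested.

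For 4 of the 6 genes the RefSeq promoter table of GRCm38.p6 holds the bases before the gene's start. The 250 bases before the start are shown because these genes were low together with TCP; capitals mark every CG pair, and each runs 5′ to 3′ on the gene's strand.
Chst5: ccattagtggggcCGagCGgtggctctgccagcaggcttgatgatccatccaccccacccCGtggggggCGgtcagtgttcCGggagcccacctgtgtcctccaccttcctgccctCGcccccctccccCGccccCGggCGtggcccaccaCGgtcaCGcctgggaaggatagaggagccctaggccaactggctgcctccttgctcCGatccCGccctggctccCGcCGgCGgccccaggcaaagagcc
Adnp: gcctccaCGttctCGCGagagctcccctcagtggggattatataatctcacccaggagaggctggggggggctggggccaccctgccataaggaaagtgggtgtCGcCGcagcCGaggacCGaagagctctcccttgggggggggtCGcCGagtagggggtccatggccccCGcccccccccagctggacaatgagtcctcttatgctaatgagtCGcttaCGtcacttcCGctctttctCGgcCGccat
Nxf1: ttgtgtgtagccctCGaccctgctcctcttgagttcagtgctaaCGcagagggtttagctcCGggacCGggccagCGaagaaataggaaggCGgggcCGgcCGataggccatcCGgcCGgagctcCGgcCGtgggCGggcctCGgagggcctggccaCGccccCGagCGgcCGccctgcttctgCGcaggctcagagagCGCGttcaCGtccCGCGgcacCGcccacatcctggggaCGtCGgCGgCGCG
Tmem185b: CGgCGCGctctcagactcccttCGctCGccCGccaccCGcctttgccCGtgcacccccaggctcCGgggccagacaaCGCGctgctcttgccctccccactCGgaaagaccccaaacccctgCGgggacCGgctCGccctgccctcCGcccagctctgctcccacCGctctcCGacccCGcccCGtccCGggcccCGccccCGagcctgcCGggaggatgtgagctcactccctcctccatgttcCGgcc
They lie at chr8:111910200-111910449 (minus strand), chr2:168207113-168207362 (minus strand), chr19:8756853-8757102 (plus strand) and chr1:119525904-119526153 (plus strand). The Chst5 window held 16 CG pairs and 71.6% G and C, the Adnp window 15 and 64.0%, the Nxf1 window 30 and 71.2%, and the Tmem185b window 25 and 74.4%. All 4 lay above the medians of 6 CG pairs and 52.0% over 27025 promoters of the same length. By CG pairs the Adnp and Chst5 windows stood at percentiles 72.5 and 74.4 of those promoters, and the Tmem185b and Nxf1 windows at 89.7 and 94.4. Both strands were searched for the exact letters of the octamer read by Oct4 (ATGCAAAT), the TATA box (TATAAA) and the CCAAT box (CCAAT). The 4 windows held 0 exact matches, and 1.61%, 13.0% and 34.5% of all promoters hold them. Near matches were not searched for, so variant sites are not excluded. The letters TGACG of the cyclic AMP response element were found in the Adnp window alone, 29 bases before the start on the other strand, and in 17.9% of all promoters.

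By the distance of the 4 log2 ratios, the member pair most alike was Pex2 and Adnp, at 0.163, and the pair most apart was Rgma and Nxf1, at 5.55. The gene nearest to Rgma was Podxl, which encodes a sialomucin, at a distance of 0.270 with ratios of 1.83 and 1.49 in dox+TCP and 2.57 and 2.40 in dox. The splicing factor gene Esrp2 came next, at 0.732. Nearest to Chst5 were Tet3, which encodes an enzyme that oxidizes methylated cytosine, at 0.388, and the claudin gene Cldn6, at 0.433. The deubiquitinase gene Usp22 and the adaptor gene Dok4 were, outside the 6 members, the 2 nearest genes to both Pex2 (0.204 and 0.205) and Adnp (0.248 and 0.228). Nearest to Nxf1 were the palmitoyltransferase gene Zdhhc5 (0.210) and Aggf1 (0.211). Nearest to Tmem185b were the corepressor gene Ctbp1 (0.113) and the kinase gene Oxsr1 (0.191). The median distance to all genes was 4.39 for Rgma, 2.01 for Chst5 and 1.14 to 1.61 for the other members. These distances rest on 4 arrays and describe likeness only.

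The genes that work with Rgma moved in both directions. Of 27 measured genes of repulsive guidance and BMP signalling, 4 passed as higher and 2 as lower than the reference in dox+TCP, and 1 and 2 in dox. The shares of all genes were 7.31% higher and 8.08% lower in dox+TCP, and 6.32% and 8.28% in dox. The list's medians were 0.06 and −0.08 (0.22 and 0.35 under median centring). The ligand gene Bmp8b rose in both groups (1.88 in dox+TCP and 1.46 in dox). The ligand gene Bmp4 (−1.26 and −1.29) and the co-receptor gene Eng (−1.23 and −1.74) fell in both. Unc5b, a receptor gene, and Id2, a BMP target gene, passed in dox+TCP at 0.61 and 0.97 and stood at 0.22 and 0.27 in dox, where they did not pass. Rgmb, the nearest relative of Rgma, read 0.16 and 0.14 in dox+TCP and 0.45 and 0.19 in dox, and the receptor gene Neo1 averaged 0.30 in dox+TCP and 0.13 in dox. Between dox+TCP and dox 0 of the 27 passed, and their median difference was 0.13, beside 0.04 over all genes.

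Among 32 measured sulfotransferase and sulfate donor genes around Chst5, 5 passed as higher and 1 as lower in dox+TCP and likewise in dox, and 0 between the groups. The shares of all genes were 7.31% higher and 8.08% lower in dox+TCP, and 6.32% and 8.28% in dox. The list's median ratios were 0.02 and 0.07, and its median difference with TCP was −0.05. The sulfate donor synthase gene Papss1 rose to 1.15 in dox+TCP and 1.22 in dox. Chst8, a sulfotransferase gene of N-acetylgalactosamine, rose to 1.65 and 1.77, and Chst1, of keratan sulfate, to 1.41 and 1.78. Chst10, which makes the HNK-1 epitope, fell to −0.91 and −1.07. The most negative differences with TCP in this list were −0.71 for Hs6st1 and −0.59 for Chst13, which were picked after their values were seen and did not pass; Chst5 itself stood at −1.13.

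Of 25 measured peroxin and peroxisomal genes around Pex2, 3 passed as higher and 1 as lower in dox+TCP, and 3 and 0 in dox, with medians of 0.09 and 0.07. The shares of all genes were 7.31% higher and 8.08% lower in dox+TCP, and 6.32% and 8.28% in dox. The membrane protein gene Pxmp4 rose in both (1.16 in dox+TCP and 1.27 in dox). The division gene Pex11g passed in dox+TCP at 0.66 and stood at −0.14 in dox, where it did not pass and turned to 0.38 under median centring. The import receptor gene Pex5 passed in dox at 0.90 and stood at 0.55 in dox+TCP. Between the groups 0 of the 25 passed, with a median difference of 0.02 (−0.09 under median centring).

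All 22 genes of the ADNP list, its chromatin partners and other heterochromatin and remodelling factors, were measured. In dox+TCP 0 passed as higher and 6 as lower, and in dox 1 and 3. The shares of all genes were 7.31% higher and 8.08% lower in dox+TCP, and 6.32% and 8.28% in dox. The list's medians were −0.40 and −0.25, and turned to 0.37 in dox under median centring (−0.08 in dox+TCP). The corepressor gene Trim28 (−1.26 in dox+TCP and −1.32 in dox) and Cbx1 (−1.08 and −1.32), which encodes HP1 beta, fell in both. The methyltransferase gene Setdb1 and the deacetylase gene Hdac1 passed in dox+TCP at −0.71 and −0.89. They stood at −0.11 and −0.36 in dox, without passing and with the sign turned under median centring (0.38 and 0.36). Between the groups 0 of the 22 passed, with a median difference of −0.13 (0.12 with local backgrounds as read).

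All 33 genes of the messenger RNA export list around Nxf1 were measured. In dox+TCP 9 passed as lower and 0 as higher, and in dox 5 and 0. The shares of all genes were 8.08% lower and 7.31% higher in dox+TCP, and 8.28% and 6.32% in dox. The list's medians were −0.40 in dox+TCP and −0.45 in dox, and turned to 0.05 and 0.17 under median centring. The helicase gene Ddx39b fell in both (−1.38 in dox+TCP and −0.85 in dox), as did Thoc6 (−0.85 and −0.93) and Thoc5 (−0.78 and −0.62), which encode subunits of the THO complex that loads export factors. The pore gene Nup98 passed in dox+TCP at −0.60 and stood at −0.20 in dox, where it turned to 0.36 under median centring. Between the groups 0 of the 33 passed, with a median difference of −0.14 (0.03 with local backgrounds as read), where Nxf1 itself stood at −0.77. Tmem185a, the relative of Tmem185b, did not pass the filter on dim probes. For these 5 lists, 0 genes passed against the reference with local backgrounds as read.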

How the data were processed

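RNA of 4 samples was measured on 4 2-colour Agilent arrays of design 014868, with treated cells in Cy5 and the reference in Cy3 per the labels, and no dye swap. Total RNA came from Trizol extraction, and labelling began from 1 µg with oligo-dT priming, per the labels' protocols. Per the file headers, spot and background intensities came from Agilent Feature Extraction 10.1.1.1 on mm7, and its log10 ratios were background-subtracted and dye-normalized with a linear and lowess step. The log10 ratios in the authors' deposited series matrix matched those within 0.005, which settles scale and direction; its column medians ran from 0 to 0.0111.

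Here, local backgrounds over 2 times an array's channel median (11 to 112 spots) were replaced by it, and limma 3.58.1 (R 4.3.3) applied normexp (offset 50) and loess within arrays. Outlier-marked spots (119 to 176 per array) were set to missing, and 1639 control spots were left out. Spots were averaged by probe, and a gene was its brightest probe among the 31127 tested, those well above background in Cy5 on each array of either group or in Cy3 on all 4. Symbols were updated through a GRCm38.p6 table (22973 probes by accession, 6644 by symbol, 3105 by synonym; 8452 kept the filed name). limma was fitted to all 4 arrays with a mean per group (2 residual and 1.79 prior degrees of freedom) and Benjamini-Hochberg adjustment at 0.05. The reference counts as 1 control sample. Its differences between arrays enter the ratios and so their SEs, with no separate estimate of its own spread. Gene-specific dye bias remains in comparisons with it. Channel levels follow Aquantile normalization.

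The members and lists were chosen with earlier results of these data known, as was the background limit. Besides the members, the rule for names took, for each, the nearest genes by pattern, the genes next in order of p, and up to 3 list genes each way; some are not reported here, and others were chosen with their values known. In simulated data for dox+TCP against dox (21419 genes, 200 changed), limma called 49.5% of genes lowered by 2 on the log2 scale and 0% of those lowered by 1.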

Additional observations from a re-analysis of the deposited data

How the results depend on the processing

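Between dox+TCP and dox, limma called 0 genes under each alternative run (214 to 2827 at an unadjusted p under 0.05), and no member's difference turned its sign. Several of these alternatives were no separate check of that sign, as given above. The counts against the reference varied widely. In dox+TCP (1565 genes higher and 1731 lower), they were 0 and 0 with local backgrounds as read, 4001 and 1106 with median centring, 2740 and 3191 from those arrays alone, 2417 and 2726 with the replicate number as a block, and 0 and 0 with scan day as a block. Leaving out 1 array gave 0 to 2740 higher and 0 to 3191 lower. In dox (1353 higher and 1774 lower), they were 0 and 0 as read, 4884 and 1139 with median centring, 0 and 0 from those arrays alone, 2147 and 2727 with the replicate block, and 0 and 0 with scan day as a block. Leaving out 1 array gave 0 to 1370 higher and 0 to 2737 lower.

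Of the members in dox+TCP, the 1 called higher became 0 as read, 2 with median centring and 0 with scan day, and the 2 called lower became 0 as read and 0 with scan day; without single arrays they ran from 0 to 1 and from 0 to 2. In dox, the 4 called higher became 0 as read, 2 with offset 16, 2 with the scanner's log ratios, 2 with the series matrix, 0 from those arrays alone and 0 with scan day, and ran from 0 to 2 without single arrays. Nxf1 in dox turned from −0.24 to 0.16 with median centring and passed in neither. Fits on only the dox arrays had 5138 genes at an unadjusted p under 0.05. Leaving out an array leaves 1 sample in a group, which is assumed to vary like the other group. Only dox+TCP replicate 2 was scanned on the later day, so scan day as a block takes that array out of the comparison. It is no adjustment for scan day over the groups. For dox against the reference, that block, the dox arrays alone and the fits without a dox+TCP array gave the same values, and are not separate checks.

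Same-numbered arrays deviated together (correlation 0.472 across genes), but 2 pairs do not show that the numbers pair the samples; with the replicate block the adjusted p of Pex2 in dox was 0.0512. Slide as a block was not run, as 4 arrays leave no degrees of freedom for it. The cause of these changes was not tested. A background limit of 10 times the median and Cy5 alone were added after seeing the data.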
